A study of Mus musculus with 8 samples.

Results

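The 10 genes described here encode transcription factors that set chamber identity and patterning in the heart: the T-box factors Tbx2, Tbx3, Tbx5 and Tbx20, the Iroquois homeobox factors Irx3, Irx4 and Irx5, the LIM homeobox factor Isl1, and the COUP nuclear receptors Nr2f1 (COUP-TFI) and Nr2f2 (COUP-TFII). They were taken by gene symbol from the 51826 Ensembl gene identifiers of the deposited count table, and each symbol matched 1 identifier. All 10 passed the filter on low counts, which left 16623 genes for testing. Isl1 passed through its e13.5 libraries alone, so its difference between ages was fixed in part by the filter. The same holds for genes named below as changed with age whose adult counts alone would not have passed. These include Irx6, Hand1, Bmp10, Th and Chrna3, with 0 counts in all adult libraries, and Sln, Shox2, Vsnl1, Gata3 and Myl7. The neighbouring gene A830082K12Rik is another. In reverse, Irx1, Ret, Cntn2 and Kcnip2 passed through their adult libraries, since their e13.5 counts alone would not have.

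RNA came from the heart of C57BL/6 mice, and the labels call the cells cardiomyocytes. There were 4 groups with 2 libraries each: wild type (WT) at e13.5, which is a stage of the mouse embryo, LncSync-/- (KO, both copies of a long noncoding RNA gene lost) at e13.5, WT adults and KO adults. The labels give no exact adult age, no account of how the null allele was made, and no word on separate animals or cultures behind the libraries, so that p-values measure the spread between these libraries, which may be technical. LncSync has no row under that name, and its loss in KO was not checked here.

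Levels are given in CPM, the counts of a gene relative to the library total after TMM scaling, so that libraries can be compared. Total estimated counts ran from 16495084 to 20395600 per library, and 3 counts in 1 library, taken as the detection floor, came to 0.103 to 0.207 CPM. The mitochondrial share of the counts was 3.21% to 4.36% in embryonic and 22.6% to 28.8% in adult libraries, and the haemoglobin share 2.89% to 15.5% in embryonic and at most 0.0136% in adult ones. The cardiomyocyte genes were abundant at both ages, with Actc1, the cardiac actin, at 14920 and 7311 CPM in WT e13.5 and 10792 and 11186 CPM in WT adults. Markers of other cells were present too: the 11 fibroblast genes summed to 869 to 3932 CPM at e13.5 and 902 to 2073 CPM in adults, and the 12 endothelial genes summed to 698 to 1011 and 805 to 1910 CPM. The 8 lung and liver genes separated the adult libraries by number, summing to 0.175 CPM (WT) and 0.461 CPM (KO) for library 1 but to 42.9 CPM (WT) and 64.4 CPM (KO) for library 2. Most of the sum in library 2 was the liver gene Alb, at 38.8 CPM (WT) and 56.2 CPM (KO). The lung genes Sftpc, Sftpb and Nkx2-1 were at 0 there in both genotypes. In such bulk libraries fewer cells of a type and less RNA per cell cannot be told apart.

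T-box proteins bind short DNA elements through a shared domain and either activate or repress transcription. In the heart Tbx5 and Tbx20 act with Nkx2-5 and Gata4 on genes of working chamber muscle, while Tbx2 and Tbx3 repress those genes in the atrioventricular canal, and Tbx3 does so in the conduction system. Irx4 is known as a marker of ventricular muscle, Irx3 for its role in the fast ventricular conduction system, and Irx5 for the gradient of repolarisation across the ventricular wall. Isl1 marks progenitors of the second heart field, sinoatrial node cells and cardiac neurons, and Nr2f2 maintains atrial identity.

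The promoters of Isl1 and Tbx20 are shown. Isl1 was the one factor without a count in any adult library. Tbx20 is given beside it as a factor with counts in all 8 libraries, as every factor but Isl1 had. The RefSeq table (GRCm38.p6) held a promoter window, 250 bases before to 50 after the annotated start, for 6 of the 10 genes. Sequences run 5′ to 3′ along the gene, which lies on the minus strand in both cases, and capitals mark the only match to a searched motif.
Isl1, chr13:116309639-116309938: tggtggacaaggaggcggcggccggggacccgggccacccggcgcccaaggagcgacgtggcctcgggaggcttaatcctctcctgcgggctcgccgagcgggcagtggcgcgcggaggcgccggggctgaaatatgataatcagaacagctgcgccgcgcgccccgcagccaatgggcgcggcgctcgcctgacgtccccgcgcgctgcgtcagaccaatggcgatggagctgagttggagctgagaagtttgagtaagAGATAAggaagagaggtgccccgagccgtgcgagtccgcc
Tbx20, chr9:24774254-24774553: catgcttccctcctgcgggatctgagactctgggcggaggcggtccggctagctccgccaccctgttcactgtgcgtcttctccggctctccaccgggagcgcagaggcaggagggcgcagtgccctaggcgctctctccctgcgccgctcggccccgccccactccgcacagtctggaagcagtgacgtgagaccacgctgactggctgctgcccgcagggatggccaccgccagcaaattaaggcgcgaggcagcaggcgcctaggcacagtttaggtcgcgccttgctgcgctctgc

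Both windows were rich in G and C, at 69.0% for Isl1 and 68.3% for Tbx20. Motifs were searched on both strands as AGGTGTGA (a T-box element), AGGTGT (its core, contained in it), AGATAA, the letters bound by zinc finger partners such as Gata4, AAGTG for NKX2-5, and AGGTCA for nuclear receptors. AGATAA stood at bases 261 to 266 of the Isl1 window, past the start site, and 11.2% of the 32851 promoters in the table hold it. The Tbx20 window held none of the 5 motifs. Over the 7 windows of these genes the only other match was AAGTG in that of Irx3, a motif found in 46.4% of all promoters. That window and the 2 for Nr2f1 lie inside the gene as GENCODE draws it, past a longer start. No window held AGGTGTGA (1.28% of promoters), AGGTGT (13.7%) or AGGTCA (16.3%). A match is a description of the letters and not evidence of binding.

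Between e13.5 and the adult, 5 of the 10 factors changed, and they were the same 5 in both genotypes. Tbx2, Irx3 and Irx5 rose, while Tbx5 and Isl1 fell (edgeR quasi-likelihood test, Benjamini-Hochberg adjusted over all 16623 genes, threshold 0.05). Across all genes tested, 38.9% passed in WT (17.8% higher and 21.1% lower), 41.4% passed in KO (20.5% higher and 20.9% lower), and 33.5% passed in the same direction in both, so that the share among the factors was close to that of other genes. The libraries of the 2 ages did not overlap for 7 of the 10 factors in WT and 8 in KO, beside 75.9% and 72.7% of all genes. The median log2 fold change of the 9 factors with a fitted value was 0.27 in WT and 0.96 in KO, beside -0.26 and -0.15 for all genes. With Isl1 at its bound, the median of all 10 was -0.20 in WT and 0.50 in KO. DESeq2 called 3 higher and 2 lower in each genotype as well.

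**Figure D1:**
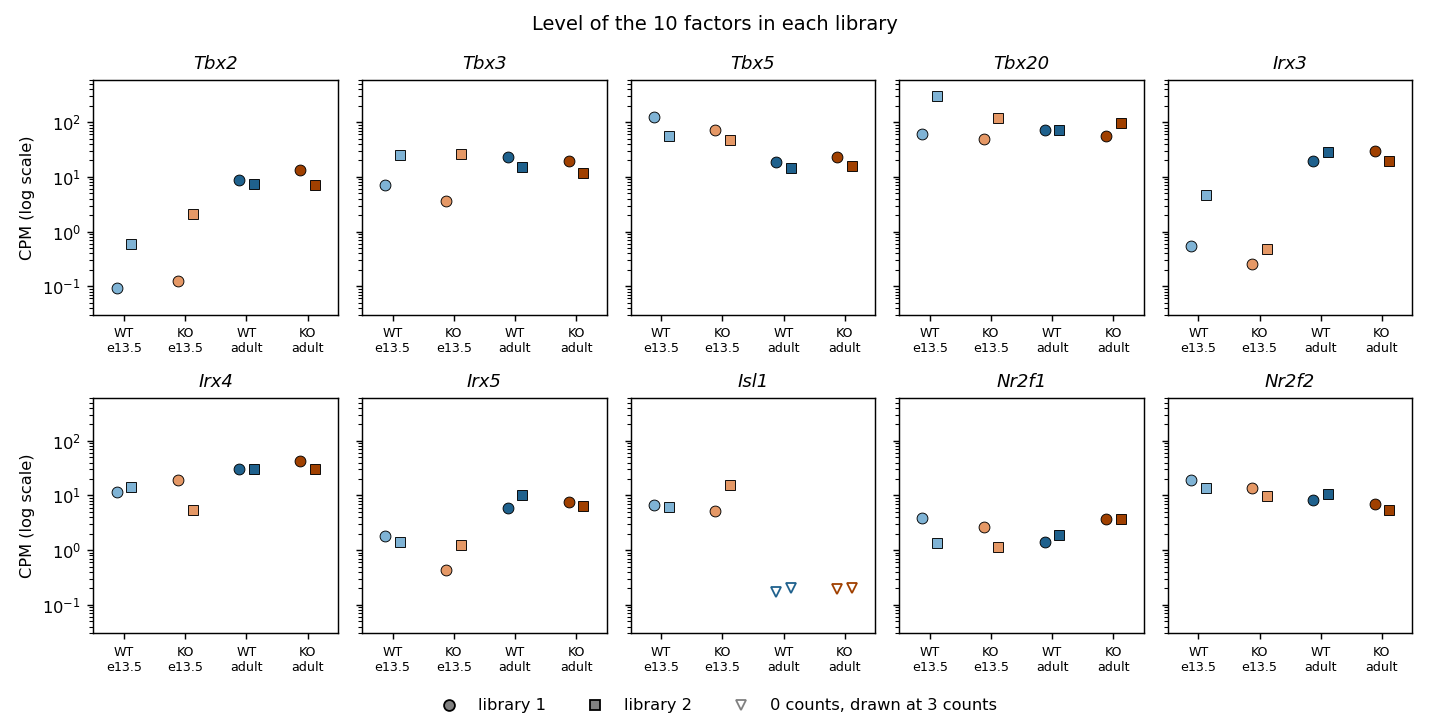
Level of each factor in the 8 libraries, in TMM-scaled CPM on a log axis, with circles for library 1 and squares for library 2 of a group. Open triangles stand for 0 counts and are drawn at the 3-count floor. Isl1 is at 0 in the 4 adult libraries, and Irx3 rises from 0.250 to 4.58 CPM at e13.5 to 19.3 to 30.2 CPM in adults. Tbx2, Tbx3, Tbx20 and Irx3 lie higher in library 2 of both e13.5 groups.

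Tbx2, a repressor of chamber genes (ENSMUSG00000000093, chromosome 11, 85832551 to 85841948, GRCm38), was near the detection floor in library 1 of both e13.5 groups. WT embryonic libraries held 2 and 17 counts (0.0922 and 0.585 CPM), and KO embryonic libraries 2 and 53 counts (0.125 and 2.10 CPM). Adult libraries held 8.97 and 7.44 CPM in WT and 13.6 and 7.09 CPM in KO. All 4 adult libraries therefore lay above all 4 embryonic ones. Tbx2 rose by a log2 fold change of 4.52 ± 1.14 (SE) (adjusted p = 0.0126) in WT and 3.17 ± 1.05 (adjusted p = 0.0358) in KO. The KO call was lost without KO e13.5 replicate 1 (edgeR adjusted p = 0.0743) and without either KO adult library (0.15 and 0.0733), within a range of 8.01e-05 to 0.15 over all alternatives, and the WT call held in every fit. The sizes depended on library 2 of the embryonic groups: without WT e13.5 replicate 2 the rise in WT was 6.39, and without KO e13.5 replicate 2 the rise in KO was 6.29, while without KO e13.5 replicate 1 it was 2.32.

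Tbx3, the repressor that keeps conduction tissue from becoming working muscle (ENSMUSG00000018604, chromosome 5, 119670669 to 119684724), spread more within the e13.5 groups than between ages. Its e13.5 values were 7.14 and 24.7 CPM in WT and 3.69 and 26.2 CPM in KO. Adult values were 23.1 and 15.3 CPM in WT and 19.2 and 11.7 CPM in KO. The 2 ages overlapped in both genotypes, and the log2 fold change was 0.27 ± 0.84 (adjusted p = 0.825) in WT and 0.04 ± 0.84 (adjusted p = 0.972) in KO. Its 95% interval, -1.62 to 2.15 in WT, leaves room for a change in either direction.

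Tbx5, an activator of chamber genes whose gene lies beside Tbx3 (ENSMUSG00000018263, chromosome 5, 119832668 to 119885219), fell with age. The e13.5 libraries held 123 and 55.2 CPM in WT and 73.2 and 47.1 CPM in KO. In adults the values were 18.6 and 14.4 CPM in WT and 22.9 and 16.1 CPM in KO, so every adult library lay below every embryonic one. The log2 fold change was -2.43 ± 0.52 (adjusted p = 0.00611) in WT and -1.62 ± 0.51 (adjusted p = 0.029) in KO. Without WT e13.5 replicate 1, which held the most Tbx5, the value in WT was -1.60. The call was lost in WT without WT adult replicate 2 (edgeR adjusted p = 0.0791, the highest over the alternatives, with 1.30e-04 the lowest). In KO it was lost without KO e13.5 replicate 1 (0.128), without either WT adult library (0.0588 and 0.0596) and without either KO adult library (0.0833 and 0.178), with 0.00246 the lowest value over the alternatives.

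Tbx20, which acts with Tbx5 in working muscle and is required for adult heart function (ENSMUSG00000031965, chromosome 9, 24718138 to 24774303), did not pass the test between ages. WT adult libraries held 73.4 and 73.3 CPM and KO adult libraries 57.1 and 96.2 CPM. At e13.5 the values were 62.3 and 298 CPM in WT and 48.8 and 119 CPM in KO, a spread that took in both adult WT values. The log2 fold change with age was -1.30 ± 0.71 (adjusted p = 0.17) in WT and -0.13 ± 0.70 (adjusted p = 0.891) in KO. WT e13.5 replicate 2 decided the sign in WT: without it the estimate was 0.26, and without WT e13.5 replicate 1 it was -1.88 with an edgeR adjusted p of 0.034 (0.034 to 0.747 over the alternatives).

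**Figure D2:**
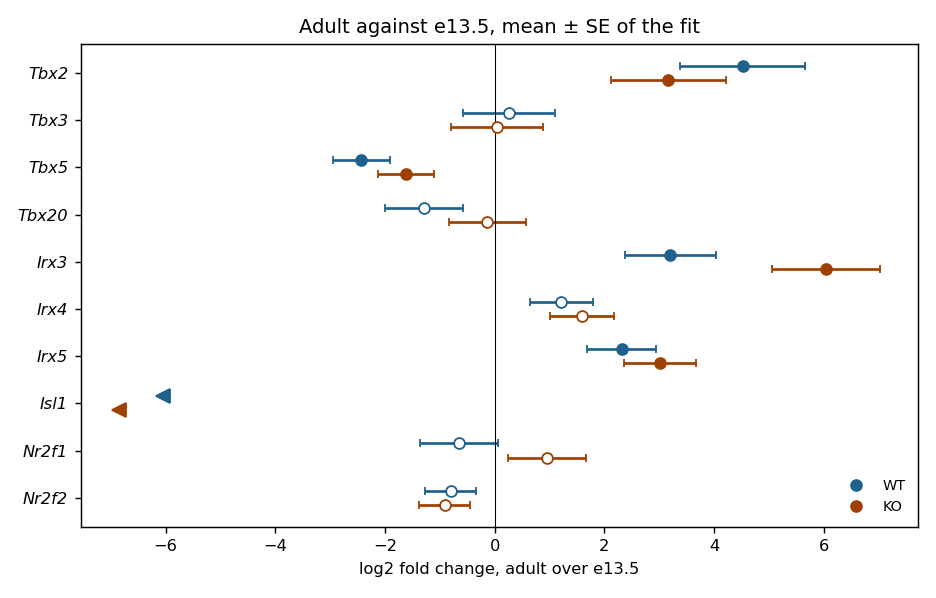
Log2 fold change of adult over e13.5 for each factor, with WT and KO in separate colours, filled markers for an adjusted p below 0.05 and bars for the standard error of the fit (2 libraries a group). The triangles for Isl1 are bounds against 3 counts in the adult group, at least 66.4-fold lower in WT and at least 116-fold lower in KO. Tbx2, Irx3 and Irx5 lie to the right of 0 and Tbx5 and Isl1 to the left in both genotypes.

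Of the Iroquois factors, Irx3 and Irx5 rose with age in both genotypes. Irx3 (ENSMUSG00000031734, chromosome 8, 91798525 to 91802067) began from 12 and 133 counts (0.553 and 4.58 CPM) at e13.5 in WT and from 4 and 12 counts (0.250 and 0.475 CPM) in KO. Adults held 19.3 and 28.5 CPM in WT and 30.2 and 19.9 CPM in KO. Each adult library stood above all embryonic ones, and Irx3 rose by 3.20 ± 0.84 on the log2 scale (adjusted p = 0.0147) in WT and 6.05 ± 0.99 (adjusted p = 0.00154) in KO. The WT call was lost without WT adult replicate 2 (edgeR adjusted p = 0.0598, the highest over the alternatives, with 4.08e-06 the lowest). Without WT e13.5 replicate 2, the embryonic library with the most Irx3, the rise in WT was 5.44, the highest estimate with any single library left out.

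Irx4, the ventricular member (ENSMUSG00000021604, chromosome 13, 73260479 to 73269608), was higher in each adult library than in the embryonic libraries of its genotype but missed the threshold. Its e13.5 values were 11.7 and 14.2 CPM in WT and 18.8 and 5.30 CPM in KO, and its adult values 29.9 and 30.3 CPM in WT and 42.9 and 30.1 CPM in KO. The log2 fold change was 1.22 ± 0.58 (adjusted p = 0.12) in WT and 1.60 ± 0.58 (adjusted p = 0.0509) in KO, with adjusted p from 0.0444 to 0.288 in WT and 0.00768 to 0.201 in KO over the alternatives. Irx5 (ENSMUSG00000031737, chromosome 8, 92357625 to 92376286) lies in the same cluster as Irx3 and rose. It went from 1.84 and 1.38 CPM to 5.94 and 10.1 CPM in WT and from 0.438 and 1.23 CPM to 7.58 and 6.30 CPM in KO. The log2 fold change was 2.32 ± 0.63 (adjusted p = 0.0173) in WT and 3.02 ± 0.66 (adjusted p = 0.00602) in KO. The call in WT was lost without WT adult replicate 2 (edgeR adjusted p = 0.134, the highest over the alternatives, with 0.0027 the lowest), and that in KO held in every fit.

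The other Iroquois genes sit in the same 2 clusters, Irx1 and Irx2 with Irx4 on chromosome 13 and Irx6 with Irx3 and Irx5 on chromosome 8. Irx1 rose from 0.230 and 0.241 CPM to 6.46 and 9.92 CPM in WT (log2 fold change 5.08 ± 0.68, adjusted p = 6.49e-04) and by 4.67 ± 0.67 in KO (adjusted p = 8.55e-04). Irx1 had passed the filter through its adult libraries alone, so this difference was fixed in part by the filter. Irx2 rose by 3.41 ± 0.77 (adjusted p = 0.0079) in WT and 2.93 ± 0.78 (adjusted p = 0.0149) in KO. Irx6 was lower in adults, unlike the other 2 genes of its cluster, and like Isl1 it had passed the filter through its e13.5 libraries alone. It was at 3.41 and 2.17 CPM in WT and 1.38 and 2.37 CPM in KO at e13.5 and had 0 counts in all 4 adult libraries, which makes it at least 28.5-fold lower in WT (adjusted p = 0.00316) and at least 20.04-fold lower in KO (adjusted p = 0.00421). Of the 13 other T-box genes only 4 had enough counts to be tested (Tbx4, Tbx6, Tbx18 and Mga), and none was called between ages. Tbx18, a factor of the epicardium and sinus horn, was at 5.67 and 5.44 CPM in WT e13.5 and 3.20 and 3.99 CPM in WT adults (log2 fold change -0.63 ± 0.51, adjusted p = 0.353).

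**Figure D3:**
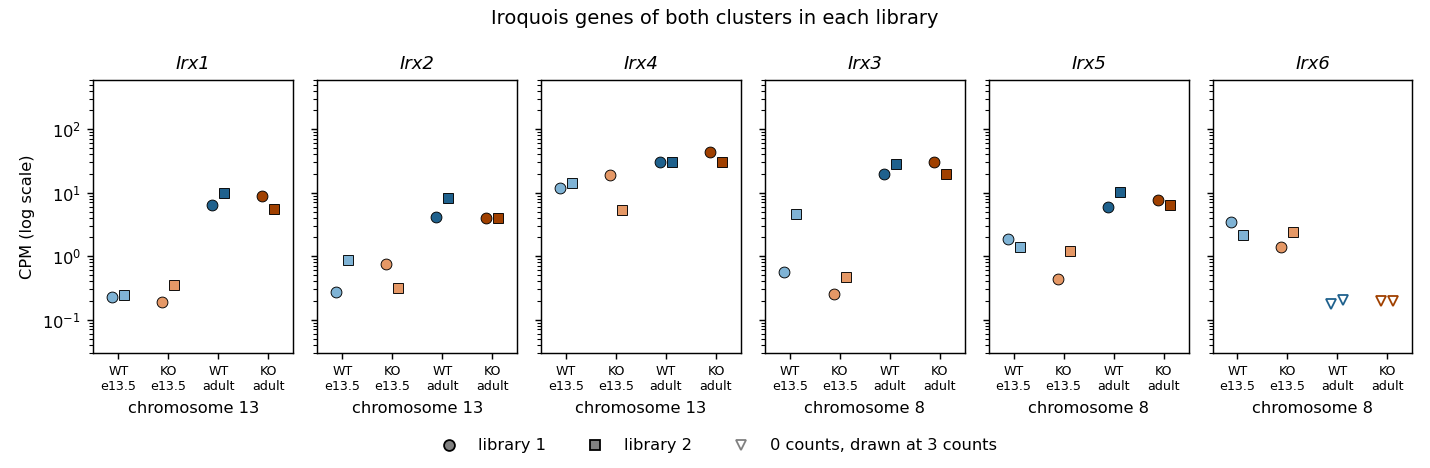
Level of the 6 Iroquois genes in each library, in TMM-scaled CPM on a log axis, ordered by chromosome, with circles for library 1, squares for library 2 and open triangles for 0 counts drawn at the 3-count floor. Irx1, Irx2, Irx3 and Irx5 lie higher in the adult libraries in both genotypes, and Irx6 is at 0 in all 4 of them.

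Isl1 (ENSMUSG00000042258, chromosome 13, 116298281 to 116309689) was the only one of the 10 without a count in a group. The e13.5 libraries held 143 and 176 counts in WT (6.59 and 6.06 CPM) and 84 and 390 counts in KO (5.25 and 15.4 CPM). All 4 adult libraries had 0 counts, where 3 counts over both libraries of a group would be 0.0946 CPM in WT and 0.0991 CPM in KO. Isl1 was at least 66.4-fold lower in WT adults (adjusted p = 0.00129) and at least 116-fold lower in KO adults (adjusted p = 9.19e-04), and both calls held in every fit. Shox2, a factor of the sinus node, fell too, from a mean of 8.70 to 0.0980 CPM in WT (log2 fold change -6.41 ± 1.24, adjusted p = 0.00381). Like Isl1, it had passed the filter through its e13.5 libraries alone. The pacemaker channel gene Hcn4 did not pass the test, with 14.1 and 6.89 CPM in WT e13.5 and 16.6 and 14.9 CPM in WT adults (adjusted p = 0.373).

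Cells other than muscle can also carry Isl1, so the neural genes are given beside it. Of the 12 ganglion and neural crest genes, 8 were tested. In WT, Ret rose and Th and Gata3 fell, and in KO these 3 moved the same way and Chrna3 fell as well. The list summed to 15.99 to 36.3 CPM at e13.5 and 11.9 to 26.6 CPM in adults. The part of neural cells in the Isl1 values was not tested. Of the 14 second heart field genes, 10 were tested, and the only one called was Hand2, which rose by 3.25 ± 0.49 (adjusted p = 0.00108) in WT and 2.58 ± 0.47 (adjusted p = 0.00268) in KO. Most of the list went the other way without a call: 8 of the 10 had a negative estimate in WT and 7 in KO. The median log2 fold changes were -0.98 and -1.01, beside -0.26 and -0.15 for all genes.

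Neither COUP factor passed the test between ages. Nr2f1 (ENSMUSG00000069171, chromosome 13, 78188973 to 78199757) was low throughout, at 3.92 and 1.34 CPM in WT and 2.69 and 1.15 CPM in KO at e13.5, and at 1.40 and 1.93 CPM in WT adults and 3.69 and 3.71 CPM in KO adults. Its log2 fold change was -0.66 ± 0.71 (adjusted p = 0.487) in WT and 0.96 ± 0.71 (adjusted p = 0.296) in KO. Nr2f2, the atrial and venous factor (ENSMUSG00000030551, chromosome 7, 70351944 to 70366735), had 19.3 and 13.4 CPM in WT and 13.6 and 9.77 CPM in KO at e13.5. Adult libraries held 8.27 and 10.5 CPM in WT and 7.12 and 5.30 CPM in KO. These lay below the e13.5 libraries of the same genotype, with log2 fold changes of -0.80 ± 0.46 (adjusted p = 0.191) and -0.91 ± 0.47 (adjusted p = 0.138). Of the 6 genes of venous endothelium, where Nr2f2 is also active, 5 were tested, and 1 rose in WT and 2 in KO, with none lower. That list summed to 52.3 to 204 CPM at e13.5 and 260.1 to 620.3 CPM in adults, and its part in the Nr2f2 values was not tested.

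Chamber markers moved with age beside these factors. Of the 12 atrial genes 3 rose and 8 fell in each genotype. Myl7, the atrial myosin light chain, went from 4433 and 860 CPM in WT e13.5 to 1.34 and 0.0689 CPM in WT adults (log2 fold change -11.83 ± 1.48, adjusted p = 5.07e-04). Bmp10, made in the embryonic trabeculae and in the atria, had 0 counts in all adult libraries, and Sln had 6 counts in WT adult library 1 and 0 in the other 3. Myh6, which both atrial and adult ventricular muscle express, and the channel genes Kcnj3 and Kcnj5 were the 3 that rose. Of the 11 ventricular genes 4 rose, among them Kcnip2 (log2 fold change 8.53 ± 0.58 in WT, adjusted p = 1.69e-04) and Pln, and Myh7, Hey2 and Hand1 fell. Atrial tissue and age cannot be told apart for Tbx5, Nr2f2 or Isl1 in these libraries, because the atrial markers moved with age.

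Other embryonic cell classes went down as well. All 9 erythroid genes fell in both genotypes, as did 9 of the 11 genes of outflow tract and valve mesenchyme, a tissue in which Tbx2, Tbx3 and Tbx20 are known to be active. Sox9, for example, fell by 5.16 ± 0.94 on the log2 scale in WT (adjusted p = 0.00285) and Tgfb2 by 4.26 ± 0.54 (adjusted p = 5.38e-04). Of the 10 epicardial genes 5 fell and none rose in each genotype. The part of these cells in the values of the factors was not tested.

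Among 22 partner transcription factors of the heart, 7 rose and 7 fell with age in WT, and 8 rose and 7 fell in KO. Nkx2-5 and Gata4, the partners of Tbx5, missed the threshold: Nkx2-5 had a log2 fold change of -0.12 ± 1.06 in WT (adjusted p = 0.937) and Gata4 one of 0.38 ± 0.88 (adjusted p = 0.754). Gata6 rose by 2.19 ± 0.40 in WT (adjusted p = 0.00296) and Tead1 by 3.72 ± 0.54 (adjusted p = 9.11e-04). Hand1, a factor of the left ventricle of the embryo, passed the filter through its e13.5 libraries alone, had 0 adult counts and was at least 201-fold lower in WT (adjusted p = 5.37e-04).

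Genes that T-box factors are known to activate or repress did not move as 1 group. Of 17 such genes, 4 rose and 10 fell in WT and 5 rose and 10 fell in KO. Atp2a2, which encodes the calcium pump SERCA2, rose by 7.33 ± 0.68 on the log2 scale in WT (adjusted p = 2.42e-04). Nppa, which Tbx5 activates and Tbx2 and Tbx3 repress, fell by 7.16 ± 1.23 (adjusted p = 0.00211), and Gja5 by 5.15 ± 0.66 (adjusted p = 5.50e-04). Mycn, a proliferation gene that Tbx2 represses, fell by 4.71 ± 0.58 (adjusted p = 4.70e-04). Of 13 pacemaker and conduction genes tested, 3 rose and 5 fell in each genotype, with Cntn2 and Cacna1g among those that rose and Vsnl1, Id2 and Kcne1 among those that fell in both.

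The order of the factors by level changed between ages. To compare genes, CPM was divided by the summed length of each gene's exons, in CPM per kilobase. In WT e13.5 Tbx5 was first at 19.1, then Tbx20 at 15.02, Irx4 at 4.97, Tbx3 at 2.41, Nr2f2 at 1.90, Isl1 at 1.60, Irx3 at 0.929, Nr2f1 at 0.516, Irx5 at 0.515 and Tbx2 at 0.0934 CPM per kilobase. Of the 9 neighbouring pairs in that order 7 overlapped in their libraries, so that the only steps beyond the spread were from Irx4 to Tbx3 and from Irx5 to Tbx2.

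WT adults were led by Irx4 at 11.6 and Irx3 at 8.66, followed by Tbx20 at 6.12, Tbx5 at 3.53, Tbx3 at 2.89, Irx5 at 2.57, Tbx2 at 2.26, Nr2f2 at 1.09, Nr2f1 at 0.326 and Isl1 at 0 CPM per kilobase. Only 3 neighbouring pairs overlapped there, those from Tbx5 through Tbx3 and Irx5 to Tbx2. KO libraries had the same leaders, Tbx5 (12.9) and Tbx20 (6.996) at e13.5 and Irx4 (14.0) and Irx3 (9.07) in adults, with 7 and 6 of 9 neighbouring pairs overlapping. Irx3 was last of the 10 in KO e13.5, at 0.131 CPM per kilobase.

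The comparison of KO with WT asked whether any of the factors differs without LncSync, and at e13.5 none passed the test. Every adjusted p was 1, beside 12 of 16623 genes called (0.0722%). DESeq2 called 30 genes and none of the factors. At an unadjusted p below 0.05 stood 1 of the 10, Irx3, beside 2.39% of all genes. Irx3 and Irx5 were lower in both KO libraries than in both WT libraries, as were 8.65% of all genes, and 15.4% of all genes did not overlap in either direction. Irx3 had a log2 fold change of -2.77 ± 0.90 (unadjusted p = 0.0119 from edgeR), with a 95% interval of -4.78 to -0.76, and Irx5 one of -0.91 ± 0.63.

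The Irx3 estimate rested on WT e13.5 replicate 2. Its 133 counts stood beside 12 in the other WT library and 4 and 12 in the KO libraries, and without it the log2 fold change was -0.54. Irx3 passed the threshold in the fit with no filter on low counts (-2.69, adjusted p = 0.0371) and in no other fit, where the adjusted p ran from 0.0502 to 1.

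The remaining factors overlapped between genotypes at e13.5. Tbx2 had a log2 fold change of 1.69 ± 1.07, with a 95% interval of -0.71 to 4.09, on counts of 2 and 17 against 2 and 53. Tbx20 followed at -1.10 ± 0.71 (-2.68 to 0.48) and Isl1 at 0.71 ± 0.66 (-0.76 to 2.19). Tbx3, Tbx5, Irx4, Nr2f1 and Nr2f2 lay between -0.57 and -0.09, with that of Tbx5 at -0.57 ± 0.49 and that of Nr2f2 at -0.48 ± 0.46. These intervals span changes of more than 2-fold in at least 1 direction, so that a p above the threshold does not show equal levels.

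In adults none of the factors passed the test either, again with every adjusted p at 1, beside 8 genes called overall (0.0481%) and 54 by DESeq2, with no factor among them. None had an unadjusted p below 0.05, beside 2.27% of all genes. Nr2f1 was higher in both KO libraries (3.69 and 3.71 CPM) than in both WT libraries (1.40 and 1.93 CPM), with a log2 fold change of 1.15 ± 0.72 and a 95% interval of -0.46 to 2.76. Nr2f2 was lower in both KO libraries, at 7.12 and 5.30 against 8.27 and 10.5 CPM, with -0.59 ± 0.47 (-1.63 to 0.45). Of all genes 27.9% did not overlap in this comparison. The other factors with counts lay between -0.31 and 0.34, and Isl1 was at 0 in both genotypes.

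**Figure D4:**
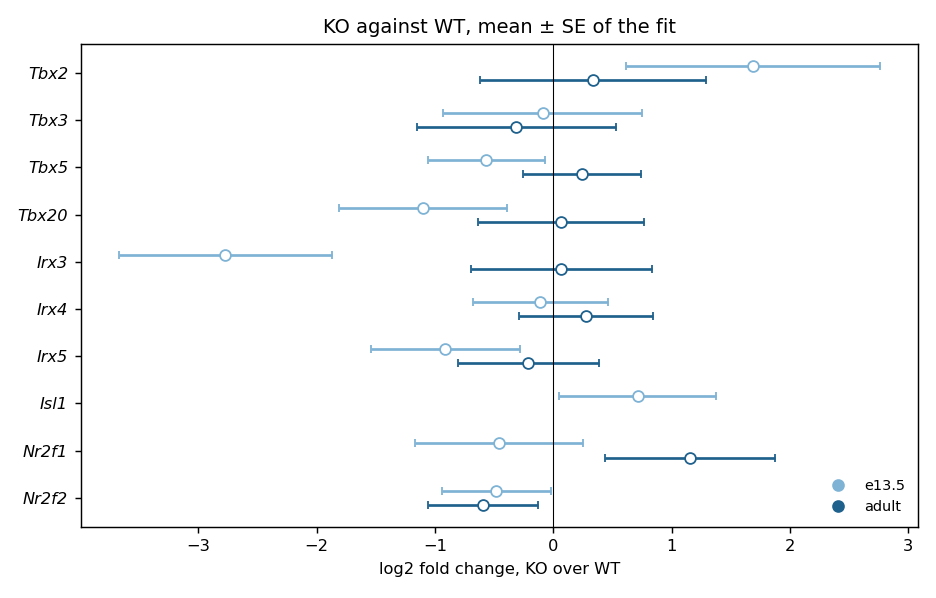
Log2 fold change of KO over WT for each factor at e13.5 and in adults, with bars for the standard error of the fit (2 libraries a group). All markers are open because no adjusted p was below 0.05, and Isl1 has no adult value because it had 0 counts. Irx3 at e13.5 lies farthest from 0, at -2.77.

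The change with age was also compared between genotypes, and no factor and no gene passed that test (edgeR, 0% of 16623 genes called), while 1.59% of all genes had an unadjusted p below 0.05. DESeq2 called 7 genes, none of them a factor. Irx3 was the only factor with an unadjusted p below 0.05, its rise being 2.84 ± 1.17 larger on the log2 scale in KO than in WT (unadjusted p = 0.0364, adjusted p = 1, edgeR), and this difference shares the e13.5 libraries named above. In none of the marker or pathway lists was a gene called between genotypes at either age. The direction of the estimates was uneven in some lists at e13.5. All 12 atrial genes had a negative estimate in KO against WT, with a median log2 fold change of -0.576, beside -0.0715 for all genes. Of the 9 erythroid genes 8 had a positive estimate, while of the 11 ventricular genes 5 were positive and 6 negative. Other lists were uneven as well. At e13.5, 9 of 10 macrophage and leukocyte genes were positive and 10 of 13 pacemaker and conduction genes negative. In adults, 10 of 10 macrophage and leukocyte, 11 of 12 endothelial and 10 of 11 fibroblast genes were positive, and 9 of 12 atrial genes negative. The part of atrial tissue in the genotype values of Tbx5 and Nr2f2 was not tested.

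The 2 libraries of each e13.5 group differed in several of the factors. Tbx3 was 3.46 times as high in library 2 as in library 1 in WT and 7.11 times in KO, and Tbx20 was 4.79 and 2.44 times as high. Nr2f1 was lower in library 2, at 0.343 and 0.427 times library 1, as was Tbx5 at 0.448 and 0.644 times. Irx3 was 8.28 times as high in library 2 of WT and 1.90 times in KO. Irx4 (1.21 and 0.282 times), Irx5 (0.747 and 2.80 times) and Isl1 (0.920 and 2.94 times) differed in direction between the genotypes, and Tbx2 lay under the floor in library 1 of both. By log2 CPM with a prior count of 2, Tbx2, Tbx3 and Tbx20 were at least 2-fold higher in library 2 of both genotypes, beside 13.7% of all genes, and Nr2f1 was at least 2-fold lower, beside 4.62% of all genes.

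Other markers moved with these libraries. The 12 atrial genes summed to 19967 CPM in library 1 and 7740 CPM in library 2 of WT, and to 14814 and 4460 CPM in KO, and 6 of the 12 were at least 2-fold lower in library 2 of both. Myl7 was at 4433 and 860 CPM in WT and Sln at 121 and 21.3 CPM. None of the 12 was at 0. Kcnj5 went the other way in both genotypes, at 17.7 and 35.1 CPM in WT and 9.50 and 28.8 CPM in KO. Kcnj3, Myh6 and Bmp10 were higher in library 2 of WT but not of KO. Lower values in library 2 were not limited to atrial genes: the 9 erythroid genes summed to 43798 and 20165 CPM in WT and 160022 and 22820 CPM in KO, with 6 of 9 at least 2-fold lower in both. The 10 cardiomyocyte genes summed to 29055 and 18548 CPM in WT and 33362 and 12830 CPM in KO, and 3 of them, Tnnt2, Actc1 and Tnni3, were at least 2-fold lower in both. The 11 genes of outflow tract and valve mesenchyme moved the other way, summing to 222 and 482 CPM in WT and 214 and 544 CPM in KO, with 5 of them at least 2-fold higher in library 2 of both. The 11 fibroblast genes were mixed: their sum was higher in library 2 (1305 and 3932 CPM in WT, 869 and 3892 CPM in KO), with 4 genes at least 2-fold higher in both, while Gsn and Mfap5 were lower in both. Higher values in library 2 were not limited to these lists either. At least 2-fold higher in both genotypes were 4 of 12 endothelial genes, 2 of 5 venous endothelial genes and 4 of 9 second heart field genes, with 0 of each that much lower. Of 10 smooth muscle and pericyte genes 4 were higher and 2 lower by that measure. Nkx2-5 was at 29.5 and 135 CPM in WT and 4.69 and 96.5 CPM in KO, and Gata4 was at 17.7 and 135 CPM in WT.

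Transcript length moved with the libraries too. Across 16591 genes, which are not independent, the ratio of library 2 to library 1 correlated with the length of the longest transcript, with a Spearman rho of 0.52 in WT and 0.36 in KO. With the genes in 3 length classes of equal size, the median log2 ratio in WT was -0.61 for the shortest and 1.03 for the longest class, and in KO -0.48 and 0.58. Tbx20, with a longest transcript of 9091 bases, and Tbx3, with 4982, are the longest of the 10, and Nr2f2, the next at 4222, was at 0.697 and 0.717 times library 1. The part of the cells behind any of these marker lists, or of transcript length, in the values of the factors was not tested.

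**Figure D5:**
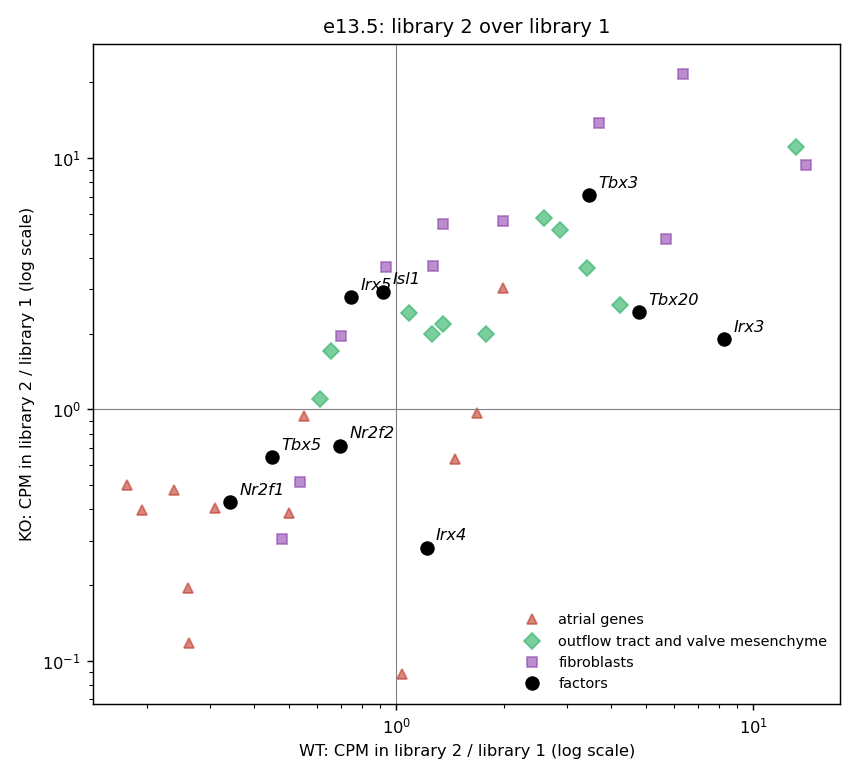
Ratio of CPM in library 2 to library 1 at e13.5, with WT on the horizontal and KO on the vertical log axis, for 9 factors (black; Tbx2 is left out because it was under the floor) and for genes of the atrial, outflow tract and valve mesenchyme and fibroblast lists. Lines mark a ratio of 1. Tbx3, Tbx20 and Irx3 lie in the upper right with most mesenchyme genes, and Tbx5, Nr2f1 and Nr2f2 in the lower left with most atrial genes.

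Noncoding genes lie close to several of the factors. The labels do not say whether counting used strand, so reads from exon bases shared on opposite strands cannot be told apart. This concerns 4 pairs: Tbx3 with Tbx3os1 (115 bases of shared exon), Irx3 with Irx3os (124), Nr2f1 with A830082K12Rik (123) and Nr2f2 with B130024G19Rik (643). The antisense gene had few counts beside the factor for Tbx3 (3.89% to 7.2% of its counts over the groups) and Nr2f2 (9.57% to 12.6%). Nr2f1 stood apart, since A830082K12Rik had 102% of its counts in WT e13.5 and 90.3% in KO e13.5 but 13.46% and 17.0% in adults. A830082K12Rik fell with age in WT (log2 fold change -3.56 ± 0.84, adjusted p = 0.00921) and had -1.29 ± 0.75 in KO (adjusted p = 0.189). Only 123 of the 5093 exon bases of Nr2f1 are shared, and the part of antisense reads in its e13.5 level was not tested. Irx3os reached 31.2% of the Irx3 counts in KO e13.5, on 5 against 16 counts.

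Crnde, a long noncoding RNA gene that lies 1505 bases from Irx5 on the opposite strand, went against its neighbour. It had 169 and 144 counts in WT e13.5 and 16 and 24 in WT adults, and 65 and 23 in KO e13.5 and 1 and 4 in KO adults. In KO it fell (log2 fold change -3.84 ± 0.996, adjusted p = 0.0134), and in WT it had -2.30 ± 0.84 (adjusted p = 0.0526). Its KO libraries lay below its WT libraries at both ages, with adjusted p = 1 in each from edgeR. Of the protein-coding neighbours of Tbx2, Gm11444 had 0 counts in every library and Bcas3 did not pass the test between ages (log2 fold change 0.50 ± 0.40 in WT, adjusted p = 0.351), while Tbx2 rose.

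The genes whose pattern was most like that of each factor were found by the Pearson correlation of log2 CPM over the 8 libraries among 14430 protein-coding genes, as a description, since all points share the libraries and the step between ages. For Isl1 the closest were Rspo3 (0.999) and Magee2 (0.998), and 1274 genes exceeded 0.95. Tbx5 was closest to Itm2c (0.997) and Slc7a7 (0.997), with 931 genes over 0.95, and Irx3 to Gfra4 (0.998) and Acot2 (0.996), with 893. Tbx2 was closest to Icosl and Il10ra (0.993 and 0.992) and Irx5 to Bckdhb (0.989) and Asb2 (0.988). The 5 factors not called between ages had fewer such genes: 39 for Tbx3, led by Esyt1 (0.983), 22 for Irx4, led by Wnt5b (0.981), 10 for Tbx20, led by Haus6 (0.964), 7 for Nr2f2, led by Hist3h2a (0.991), and 0 for Nr2f1, where Sh3bp5l came first (0.945).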

How the data were processed

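RNA of cardiomyocytes from mouse heart was sequenced in 8 libraries, 2 for each of 4 groups, from 200 ng of total RNA by Smart-seq2 and a SMARTer kit, per the labels' protocols. Values of the deposited table are estimated counts per gene (expected counts), made with RSEM on mm10, per the submitters' processing notes. Its name speaks of normalised input, but the values are whole numbers with differing totals and were used as counts. The RSEM version, its aligner and its gene models were not given in the sources used here.

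Identifiers were named from GENCODE vM21 (51633 of 51826). Genes were kept by filterByExpr with a minimum count of 10, scaled by TMM (factors 0.770 to 1.44), and fitted with edgeR 4.0.16 in R 4.3.3 as 4 group means over all 8 libraries, with 4 residual degrees of freedom and a coefficient of biological variation of 0.428 (median). Tests were two-sided, Benjamini-Hochberg adjusted. Folds against a group at 0 used a floor of 3 counts over the group. The code was tested on simulated data. Alternatives were other scalings and filters, DESeq2 1.42.0, subsets of libraries, a replicate block, removal of 403 mitochondrial, haemoglobin and ribosomal RNA genes, and each library left out.

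The members, lists and tests were chosen with earlier results of these data known. Named genes were all 10 factors, neighbours within 10 kb, the called genes of each list by smallest p or, where none was called, those of highest level, and the chamber genes beside the e13.5 libraries. List genes outside this rule (Nkx2-5, Gata4, Gata6, Hey2, Bmp10, Kcnj5, Cntn2, Tbx4, Actc1, Tnnt2, Tnni3, Gsn, Mfap5) were named after their values were seen. Protein sequences were not used here.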

Additional observations from a re-analysis of the deposited data

How the results depend on the processing

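The number of factors called was within 1.5 times the main count under most settings. With no filter on low counts 1 factor passed at e13.5 between genotypes, Irx3, in place of 0. With each library left out in turn, 2 to 6 factors were called between ages in WT and 3 to 6 in KO, and the lowest counts came without WT adult replicate 2 and without either KO adult library. By the longest transcript in place of all exons, 8 of 40 positions in the order of levels changed. Of 659 values of single factors under another setting, 600 kept their direction and side of the threshold, 36 changed sign, 12 newly passed and 11 no longer passed.

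Every change of sign was of a value that had not passed the test. In KO against WT at e13.5, Tbx3 became 0.0105 with median-of-ratios scaling, 0.0176 with upper quartile scaling and 8.97e-03 with DESeq2, and Irx4 became 0.0935 with median-of-ratios scaling and 0.0944 with DESeq2. Tbx3 between ages in KO became -0.16 with upper quartile scaling, -0.0682 with a minimum of 5 CPM and -0.0501 with only the 4 libraries of the comparison. With 1 library left out, the log2 values between genotypes at e13.5 ran from -1.43 to 3.54 for Tbx2, -2.10 to 1.07 for Tbx3, -0.996 to 0.28 for Tbx5, -1.87 to 0.44 for Tbx20, -1.30 to 0.55 for Irx4, -0.26 to 1.28 for Isl1 and -1.20 to 0.66 for Nr2f1. In adults they ran from -0.21 to 0.73 for Tbx2, -0.72 to 0.0196 for Tbx3, -0.0378 to 0.47 for Tbx5, -0.36 to 0.39 for Tbx20, -0.27 to 0.37 for Irx3, -1.87e-03 to 0.51 for Irx4 and -0.54 to 0.21 for Irx5. Between ages in WT they ran from -0.23 to 1.44 for Tbx3, -1.88 to 0.26 for Tbx20 and -1.21 to 0.45 for Nr2f1, and in KO from -0.75 to 2.06 for Tbx3 and -0.62 to 0.65 for Tbx20. The cause of these shifts was not tested.

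The libraries share replicate numbers across genotypes, and deviations of same-numbered libraries correlated with r = 0.55 at e13.5 and 0.31 in adults, over 2 pairs each. The liver gene Alb, high in adult library 2 of both genotypes, also goes with the number. With 2 pairs and no word in the labels on what a number marks, the pairing was not taken as shown. With the replicate block, 0 factors were called between genotypes at either age, 5 between ages in WT and 6 in KO, where Irx4 was added (adjusted p = 0.0275 from edgeR), and Tbx20 between adult genotypes became -0.0741. With the block at e13.5 alone the counts between ages were 6 in WT and 7 in KO. Depth limited Tbx2, Irx3 and Irx5 at e13.5, which had 2, 4 and 7 counts in the lower KO library.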
